A study of Mus musculus with 2 samples.

Results

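Venous endothelial cells with Bmp4 and Edn1 were followed in non-parenchymal cells (NPCs) of mouse liver, the cells of the liver other than hepatocytes. The members were the cells with at least 3 unique molecular identifiers (UMIs, each a tag of 1 captured transcript) summed over Bmp4, Edn1, Fbln2, Lhx6 and Fmo2. They also held at least 2 UMIs over the endothelial genes Pecam1, Ptprb, Cdh5, Egfl7 and Kdr, no UMI of Adgrg6 or Atp13a3, which mark another endothelial class, and at most 3 UMIs over the Kupffer cell genes Clec4f and Cd5l. By this rule 379 of 8229 cells were members, 103 in the control library and 276 in the NASH library. The control mice received chow and the NASH mice a diet deficient in methionine and choline (MCD) with 40% carbohydrate and 10% fat, a model of non-alcoholic steatohepatitis. All were male C57BL/6 mice, 8 weeks old, fed for 6 weeks. For each diet the cells of 3 mice were combined and captured with BD Rhapsody, so that the data hold 1 library per diet without replicates. No test between diets was possible, and every interval below is a 95% interval for counting error only.

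Veins of the liver, the portal branches that bring blood to the lobule and the central branches that drain it, are lined by a continuous endothelium, while the sinusoids between them are lined by liver sinusoidal endothelial cells (LSECs), which are fenestrated and rich in scavenger receptors. Venous endothelial cells (VECs) are known as sources of signals to their surroundings. Bmp4 encodes a ligand of the bone morphogenetic protein pathway, and Edn1 encodes endothelin-1, a peptide that contracts stellate cells and smooth muscle. NASH is known for capillarization of the sinusoids, in which LSECs lose their fenestrae.

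Over the 16383 genes analysed here the members held a median of 2603 UMIs per cell in the control (range 548 to 10948) and 2503 in the NASH library (552 to 13327), and 308513 and 781322 UMIs in all. The gene columns run in alphabetical order up to Rad54l2, so that later genes were not analysed here. Among them are Selp, by which together with Bmp4 the study named its VEC cluster, and the endothelial genes Vwf and Thbd. Across the libraries 21 cell numbers occurred in both, and none of these belonged to a member of both. A UMI of the immune genes Ptprc, Cd79a, Cd3e or Adgre1 was present in 17 control members (16.5%) and 58 NASH members (21.01%). No doublet caller was run and such cells were kept. Comparison classes were 1113 control and 1224 NASH sinusoidal-type cells, endothelial cells without a UMI of the 5 rule genes, Adgrg6, Atp13a3 or Ptprc, and 71 and 79 Adgrg6 endothelial cells. The Adgrg6 class was mixed, as a Ptprc UMI was present in 32.4% of its control and 35.4% of its NASH cells and an Epcam or keratin UMI in 19.7% and 10.1%. Cholangiocyte markers summed to 2121 and 956 CPM there.

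The members were chosen by the measured UMIs of the 5 rule genes, so that the values of these genes are a description. Bmp4 lies at chr14:46383520-46390669, Edn1 at chr13:42301476-42307990, Fbln2 at chr6:91212455-91272540, Lhx6 at chr2:36081953-36105408 and Fmo2 at chr1:162874317-162898726 (GRCm38, GENCODE M21). Levels are given as counts per 1000000 UMIs (CPM), with the UMIs summed over the members of a library. Bmp4 stood at 1066 CPM (954 to 1188) in the control and 1579 CPM (1492 to 1670.0) in the NASH members, a log2 ratio of 0.56 (0.39 to 0.75). Edn1 stood at 1089 CPM (976 to 1212) and 860.1 CPM (796 to 928), a log2 ratio of -0.34. Lhx6, a LIM homeobox transcription factor, went from 797 to 500.4 CPM, a log2 ratio of -0.67 (-0.91 to -0.44). Fmo2, a flavin monooxygenase, held 827 and 887 CPM, with intervals that overlapped. Fbln2, an elastic fibre glycoprotein, held 1034 and 899.8 CPM, but 103 of its 319 control UMIs lay in 1 cell, and without the highest cell of each library its log2 ratio turned from -0.20 to 0.25.

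Few members carried the whole signature. All 5 genes were detected in 15 control (14.6%) and 32 NASH members (11.6%), and a single one of them in 14 (13.6%) and 28 (10.1%). Bmp4 and Edn1 were found together in 59 control (57.3%) and 151 NASH members (54.7%). The median of the summed rule UMIs was 10 in the control and 8 in the NASH members. A Bmp4 UMI was present in 69 of 103 control and 213 of 276 NASH members, and an Fmo2 UMI in 37 and 91.

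Promoter windows, 250 bases before to 50 after a gene's start in RefSeq (GRCm38.p6), were searched on both strands for the GATA motif AGATAA and the AP-1 motif TGANTCA, as factors of both families act in endothelium. The motifs do not overlap in the windows shown. Of 8 windows of the 5 rule genes, 2 held the GATA motif (Edn1 and Fmo2) and 1 the AP-1 motif (Lhx6), against 11.2% and 7.81% of all 32851 windows. Shown are Edn1 and Lhx6, as rule genes with a match of each motif, and Notch4, whose level differed between the diets. Of 9 windows of 8 further genes that differed between the diets (Kit, Cd36, Frzb, Ednrb, Hhex, Lrg1, Cyp1b1 and Notch4), the Notch4 window alone held a match, of AP-1. Capitals mark the match, read 5′ to 3′ on the gene's strand. The match begins 8 bases after the start in Edn1 (chr13:42301226-42301525, plus strand), 181 bases before it in Lhx6 (chr2:36105359-36105658, minus strand) and 4 bases before it in Notch4 (chr17:34564045-34564344, plus strand). A match is a description of the letters and no binding was measured.
Edn1: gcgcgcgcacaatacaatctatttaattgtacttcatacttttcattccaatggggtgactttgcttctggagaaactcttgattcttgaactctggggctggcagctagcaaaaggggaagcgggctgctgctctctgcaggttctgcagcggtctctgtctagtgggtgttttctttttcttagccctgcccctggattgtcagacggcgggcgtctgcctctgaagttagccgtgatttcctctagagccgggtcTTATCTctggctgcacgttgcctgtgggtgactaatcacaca
Lhx6: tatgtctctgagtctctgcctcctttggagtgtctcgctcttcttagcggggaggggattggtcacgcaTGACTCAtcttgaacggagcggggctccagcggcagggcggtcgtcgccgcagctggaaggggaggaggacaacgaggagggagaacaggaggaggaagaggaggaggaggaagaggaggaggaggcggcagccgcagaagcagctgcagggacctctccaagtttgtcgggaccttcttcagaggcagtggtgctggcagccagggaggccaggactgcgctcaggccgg
Notch4: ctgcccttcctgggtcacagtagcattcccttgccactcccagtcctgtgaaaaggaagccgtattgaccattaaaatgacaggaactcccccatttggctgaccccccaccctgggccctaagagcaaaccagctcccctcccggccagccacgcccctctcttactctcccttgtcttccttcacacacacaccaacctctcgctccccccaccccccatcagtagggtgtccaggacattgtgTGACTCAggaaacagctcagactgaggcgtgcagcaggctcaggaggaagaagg

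The share of VECs was higher in the NASH library. They made up 2.45% of 4209 kept control cells (2.00 to 2.96) and 7.44% of 3710 kept NASH cells (6.62 to 8.33), a 3.04-fold difference. Endothelial cells as a whole made up 44.3% and 63.6% of the kept cells. Among endothelial cells the VECs held 5.52% (4.53 to 6.66) and 11.7% (10.4 to 13.1), a 2.12-fold difference. The intervals did not overlap for either denominator. With a minimum of 2, 4, 6 or 10 rule UMIs the NASH share stayed 3.23, 3.01, 2.92 and 2.57 times the control share. These minima use the same 5 genes, so that more such cells cannot be told apart from higher levels of these genes per cell. A pool of 3 mice gives no spread between animals, and the yield of digestion cannot be told apart from the number of cells in the tissue.

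**Figure D1:**
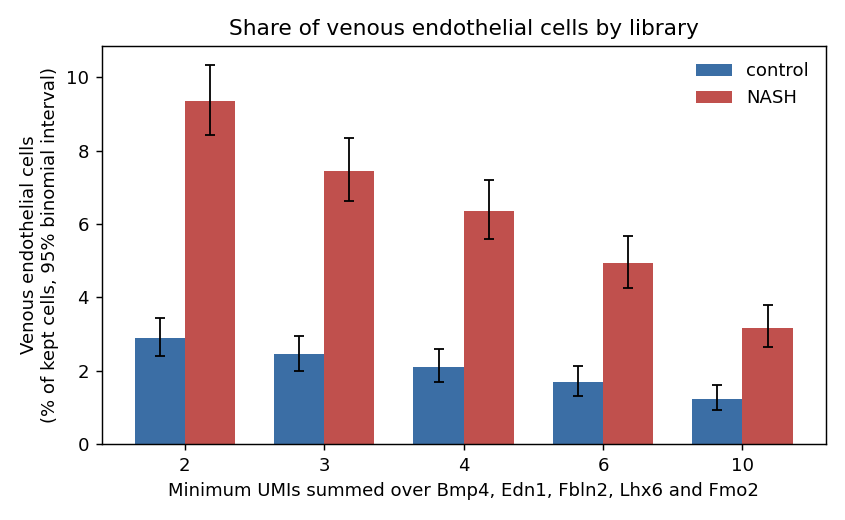
Share of venous endothelial cells among kept cells (y axis, percent) in the control and NASH library for 5 minima of summed rule UMIs (x axis). Bars are shares and whiskers 95% binomial intervals. At the minimum of 3 used in the text the shares are 2.45% and 7.44%, and the NASH bar is the taller at every minimum.

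Genes outside the rule were set beside the sinusoidal-type cells of the same library. Since the rule divides the cells by measured genes, these differences are descriptions without a test. At least 2-fold higher in the members of both libraries were 244 of 6489 genes with at least 50 UMIs (3.76%), and at least 2-fold lower were 187 (2.88%). Gpm6a, a neuronal membrane glycoprotein used as a VEC marker but not in the rule, held 431 CPM (361 to 511) in control and 369.9 CPM (328 to 415) in NASH members. In the sinusoidal-type cells Gpm6a held 3.47 and 16.0 CPM. Prss23, a serine protease, held 282 and 209 CPM in members against 3.47 and 1.19 CPM, and Col6a3, a chain of type VI collagen, 178 and 166 CPM against 4.46 and 5.94 CPM. Fstl1, a secreted glycoprotein related to follistatin, held 408 and 216 CPM against 12.9 and 5.94 CPM. These 4 genes were above the sinusoidal-type cells in both libraries. The study reported them, beside Bmp4 and Fmo2, among the top genes of its VEC cluster in these same data. Their levels are therefore a description and no separate support for the name VEC, which was kept. By qPCR of isolated LSECs, another measure and cell preparation, the study found Gpm6a and Col6a3 higher and Bmp4 lower in MCD mice. In the members the log2 ratios were -0.22 (-0.52 to 0.09) for Gpm6a, -0.11 (-0.57 to 0.38) for Col6a3 and 0.56 for Bmp4. Gpm6a is also a mesothelial marker, and 33 of its 133 control UMIs lay in 1 cell. The 10 mesothelial markers, Gpm6a among them, summed to 658 and 408 CPM in the members against 17.8 and 32.1 CPM in the sinusoidal-type cells, and their part in these levels was not tested. Nr2f2 (COUP-TFII), the factor of venous fate, was above them by less than 2-fold, with log2 ratios of 0.40 and 0.45.

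Of 15 listed venous markers outside the rule 13 could be measured against the sinusoidal-type cells. Of these, 5 were at least 2-fold higher in the members of both libraries and none lower, against 3.76% and 2.88% of all genes. The 15 markers summed to 17640 CPM in control and 16592 CPM in NASH members, against 5535.1 and 7437 CPM in the sinusoidal-type cells. Fabp4, a fatty acid binding protein of continuous endothelium, held 7364 and 7312 CPM in the members against 755 and 2197 CPM. Cdh13, T-cadherin, held 2123 and 2100.3 CPM against 338 and 541 CPM. Entpd1 (CD39), which breaks down extracellular ATP, held 707 and 605 CPM against 14.9 and 30.9 CPM. Fabp4 and Cdh13 were level between the diets in the members, with log2 ratios of -0.01 (-0.08 to 0.06) and -0.02 (-0.15 to 0.12), while the same genes were higher in NASH in the sinusoidal-type cells, with log2 ratios of 1.54 and 0.68. Those 2 pairs of ratios were not tested against each other. Of 13 measured markers of continuous endothelium and capillaries, 2 were at least 2-fold above the sinusoidal-type cells in both libraries and 2 below. Over all genes the shares were 3.76% and 2.88%. The 15 listed summed to 13821 and 13518 CPM in control and NASH members against 14645 and 13352 CPM. Cd9 was above, with 1167 and 878 CPM against 229 and 276 CPM. Cldn5 was below, with 146 and 75.5 CPM against 999.8 and 662 CPM.

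Sinusoidal markers were lower in the members but present, and arterial markers went both ways. Of 20 sinusoidal markers 12 were at least 2-fold below the sinusoidal-type cells in both libraries and none above, and their summed level was 24758 and 26029 CPM against 67053 and 60830 CPM (in control and NASH). Of 11 measured arterial and portal markers 3 were at least 2-fold above and 4 below in both libraries. Over all genes the shares were 3.76% above and 2.88% below. Fbln5 was above, with log2 ratios over the sinusoidal-type cells of 4.54 and 4.74. Below them, Adam23 held 146 and 65.3 CPM in the members against 1898 and 1382 CPM in the sinusoidal-type cells, and Efnb2, the arterial ephrin ligand, 13.0 and 19.2 CPM against 218 and 230.0 CPM. Msr1, a scavenger receptor, held 35.7 and 34.6 CPM against 761 and 344 CPM. Of the arterial markers Gja5 and Hey1 were at 0 in the control members and Alpl in the NASH members. Of the lymphatic markers Ccl21a, Mmrn1 and Prox1 were at 0 in the control and Ccl21a and Pdpn in the NASH members, whose summed UMIs were more numerous. The 6 lymphatic markers summed to 677 and 1179 CPM in the members. Most of this was Flt4, with 622 and 831 CPM, against 2101 and 2515 CPM in the sinusoidal-type cells.

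Against the Adgrg6 endothelial cells 327 of 5224 genes were at least 2-fold higher in the members of both libraries (6.26%) and 402 were lower (7.7%). Gpm6a held 282 and 97.2 CPM in the Adgrg6 cells of the control and NASH library. The members were above them by log2 ratios of 0.61 and 1.91, short of 2-fold in the control. Kit stood at 37.8 and 35.7 CPM in the Adgrg6 cells of the control and NASH library. Plppr5 held 353 and 267 CPM in the members, and 0 and 6.48 CPM in the Adgrg6 cells.

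**Figure D2:**
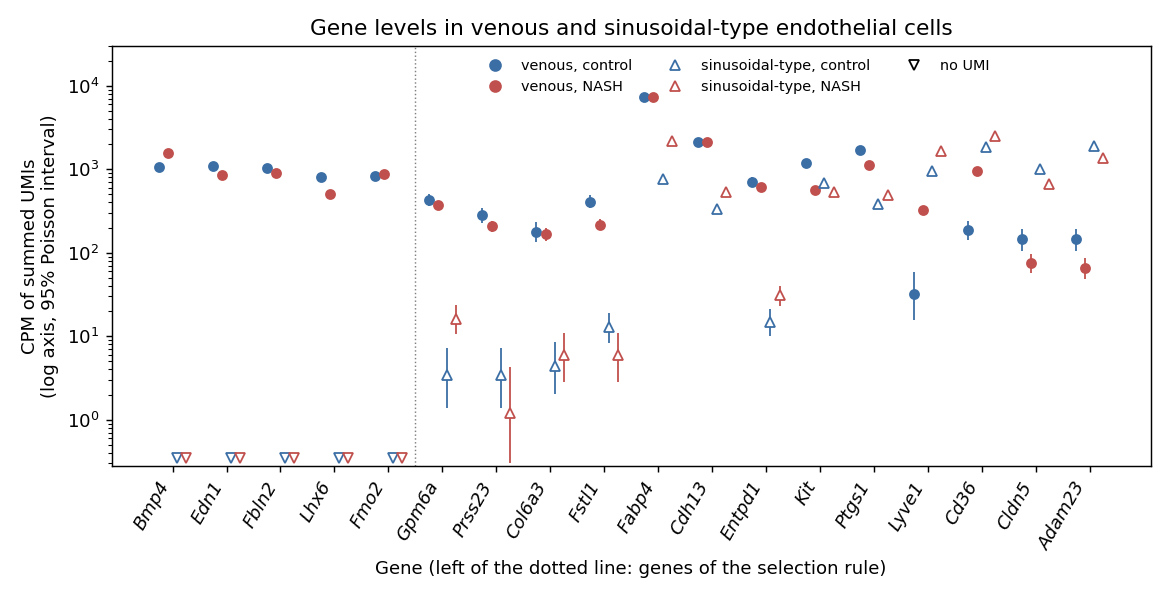
Levels of 18 genes (x axis) in CPM of summed UMIs (y axis, log scale) in venous (filled circles) and sinusoidal-type endothelial cells (open triangles) of the control and NASH library, with 95% Poisson intervals. Inverted triangles mark genes without a UMI, which for the 5 rule genes follows from the definition of the sinusoidal-type class. Gpm6a, Prss23, Col6a3, Fstl1 and Entpd1 stand far apart between the classes, and Kit and Cd36 differ between the libraries within the members.

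The members graded into the sinusoidal-type cells with the number of rule UMIs. Just outside the rule, 19 control and 71 NASH cells held 2 rule UMIs, and just inside it 14 and 40 held 3. Clec4g, a lectin receptor of LSECs, stood at 5784 and 3394 CPM with 2 rule UMIs, at 4389.9 and 3215 CPM with 3, and at 1144 and 1404 CPM with 10 or more. Fabp4 ran the other way, with 3848 and 4721 CPM at 2 rule UMIs, 5439 and 6689.9 CPM at 3, and 8266 and 8079 CPM at 10 or more. Gpm6a was not found in the 14 control cells with 3 rule UMIs and stood at 129.7 CPM (62.2 to 238) in the 40 NASH cells, against 437 and 566 CPM at 10 or more. Cells near the limit thus held more Clec4g, in both libraries. Control Lyve1 differed little, with 38.8 CPM at 3 rule UMIs and 26.0 CPM at 10 or more, on 1 and 5 UMIs. Depth differed as well, with medians of 1353 (control) and 1927.5 UMIs (NASH) at 3 rule UMIs, and 3338 and 3190 UMIs at 10 or more.

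**Figure D3:**
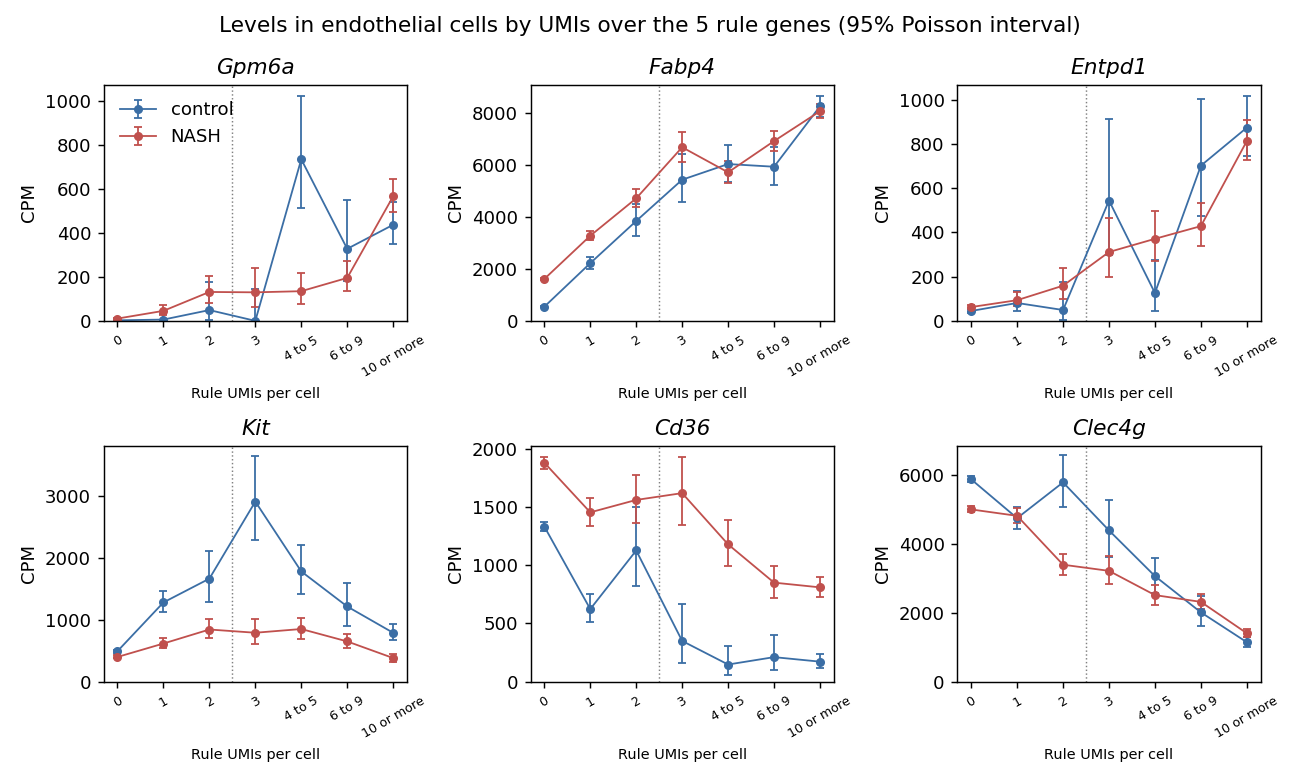
CPM (y axes) of 6 genes in endothelial cells without Adgrg6 or Atp13a3 by UMIs summed over the 5 rule genes (x axes), for the control and NASH library with 95% Poisson intervals. Members lie right of the dotted line. At 10 or more rule UMIs Fabp4 is higher and Clec4g lower than at 0 in both libraries. Kit is lower and Cd36 higher in NASH in every group of members.

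Between the diets, 3912 genes with at least 50 UMIs over the members of both libraries were compared. At least 2-fold higher in the NASH members were 111 (2.84%), and at least 2-fold lower were 56 (1.43%), together 4.27%. Of these, 99 and 39 stayed past 2-fold without the cell with most UMIs of the gene in each library. The median log2 ratio of all genes was -0.03. In the sinusoidal-type cells 26 of the 111 genes were also at least 2-fold higher in NASH, and 2 of the 56 lower.

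Kit, the receptor of stem cell factor (chr5:75574916-75656722), was lower in the NASH members. It held 1179.9 CPM (1062 to 1308) in the control and 557 CPM (506 to 612) in the NASH members, a log2 ratio of -1.08 (-1.29 to -0.88), and was found in 79 of 103 and 172 of 276 cells. In the sinusoidal-type cells Kit stood at 689.7 and 527 CPM, a log2 ratio of -0.39. The difference was seen in every group of members by rule UMIs. Kit held 2914 and 791 CPM in control and NASH cells with 3 rule UMIs, 1783 and 851 CPM with 4 to 5, 1216 and 650.5 CPM with 6 to 9, and 790.3 and 381 CPM with 10 or more. The ratio of Kit was -1.05 without the highest cell of each library, and -0.94 and -0.90, short of 2-fold, with at least 4 and 6 rule UMIs. With every cell thinned to 1000 UMIs, which left 92 control and 261 NASH members, a Kit UMI was present in 58.7% (47.9 to 68.9) and 38.3% (32.4 to 44.5), against 38.3% and 36.1% of the sinusoidal-type cells. Before thinning the shares were 76.7% and 62.3%. In B cells, which lack Kit and gave the background, the share at that depth was 0.545% and 1.25%, with median depths of 1117 and 1085 UMIs before thinning.

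Among secreted proteins of endothelium, Ctgf and Plau were higher and Lrg1 was lower in the NASH members. Ctgf, a matricellular protein and target of YAP, held 739 CPM (646 to 841) in control and 2328 CPM (2222 to 2438) in NASH members, a log2 ratio of 1.65 (1.46 to 1.86), and was found in 50 of 103 and 220 of 276 cells. It was also higher in NASH in the sinusoidal-type cells, with 82.7 and 613 CPM. Cyr61, another YAP target, held 143 and 182 CPM in the members, a log2 ratio of 0.34. Plau, urokinase, held 113 CPM (79.0 to 158) and 358 CPM (318 to 403), a log2 ratio of 1.64 (1.15 to 2.21), near the 1.44 of the sinusoidal-type cells. Inhbb, an activin subunit, held 152 and 267 CPM. Lrg1, a secreted glycoprotein that alters TGF-beta signalling in vessels, was lower, with 652 CPM (565 to 748) and 238 CPM (205 to 275), a log2 ratio of -1.45 (-1.75 to -1.16).

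Fatty acid handling differed gene by gene. Cd36, the fatty acid translocase (chr5:17781690-17888801), held 188 CPM (143 to 243) in control and 956 CPM (889 to 1027) in NASH members, a log2 ratio of 2.33 (1.96 to 2.76), and was found in 32 of 103 and 176 of 276 cells. In the sinusoidal-type cells it held 1839 and 2474 CPM, a log2 ratio of 0.43. With 10 or more rule UMIs the members held 172 and 810.4 CPM of Cd36, and with 3 rule UMIs 349.6 and 1621 CPM. At 1000 UMIs per cell a Cd36 UMI was present in 15.2% (8.58 to 24.2) of control and 51.3% (45.1 to 57.6) of NASH members, against 31.1% and 63.8% before thinning and 4.09% and 6.25% in B cells. Of 17 measured genes of fatty acid and lipoprotein uptake 3 were at least 2-fold higher in NASH members, and none lower. The 3 were Cd36, Lpl and Plin2. Over all genes the shares were 2.84% higher and 1.43% lower, and the median log2 ratio of the 17 genes was 0.27. Plin2, a lipid droplet protein, held 74.6 and 152 CPM, a log2 ratio of 1.01 (0.38 to 1.74), but passed 2-fold in 4 of 11 alternatives only, with a lowest ratio of 0.30 at 10 or more rule UMIs. Gpihbp1, which anchors lipoprotein lipase, held 1170.1 and 1956 CPM, a log2 ratio of 0.74 (0.57 to 0.91). For Lpl, 52 of 84 NASH UMIs lay in 1 cell that held 5 Ptprc UMIs, and its log2 ratio was 1.54 with and 0.55 without the highest cells.

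Of the sinusoidal markers, Lyve1, a hyaluronan receptor (chr7:110850607-110863239), was the only one of 18 measured past 2-fold, against 4.27% of all genes. Lyve1 held 32.4 CPM (15.5 to 59.6) in the control and 323 CPM (284 to 365) in the NASH members, a log2 ratio of 3.25 (2.41 to 4.39), and was found in 6 of 103 and 77 of 276 cells. In the sinusoidal-type cells it held 945 and 1653 CPM. At 1000 UMIs per cell the share of members with Lyve1 was 4.35% (1.20 to 10.8) and 16.1% (11.9 to 21.1), against 5.83% and 27.9% before thinning, with none in B cells, 0 of 367 control cells, which allows a share of up to 0.817%, and 0 of 80 NASH cells, which allows up to 3.75%. Its NASH level was 1115 CPM in members with 3 rule UMIs and 194 CPM with 10 or more, against 38.8 and 26.0 CPM in the control. Oit3, a zona pellucida domain protein of LSECs, held 1047 and 2036 CPM in the members, a log2 ratio of 0.96 (0.79 to 1.14). Clec4g, Gpr182 and Dnase1l3 had log2 ratios of 0.10, 0.13 and 0.14, and the median over the 18 markers was 0.09.

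The 77 NASH members with a Lyve1 UMI had a median of 2722 UMIs, and the 199 without it a median of 2430 UMIs, so that depth differed as well. The 77 held more Cd36, with 1489 CPM against 733 CPM, and more Clec4g, with 2605 against 1699 CPM. Ctgf was similar, with 2266 and 2354 CPM, and Kit with 612 and 534 CPM. Bmp4 was lower in them, at 1189.7 CPM (1053 to 1339) against 1742 CPM (1634 to 1856). They are part of the NASH library alone and their grouping rests on 1 measured gene, so no difference was tested. In the control the 6 members with a Lyve1 UMI held 785 CPM of Cd36, on 17 UMIs, against 143 CPM in the 97 without it. Their Clec4g stood at 1755 against 1837 CPM. Without the members that carried a Lyve1 UMI in either library, Cd36 held a log2 ratio of 2.34 and Ctgf of 1.68.

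Of 13 measured Notch pathway genes 3 were at least 2-fold higher in the NASH members, none lower, against 2.84% and 1.43% of all genes, and their median log2 ratio was 0.19. Notch4, an endothelial receptor whose promoter is shown above (gene at chr17:34564268-34588503), held 77.8 CPM (49.8 to 116) in control and 249.6 CPM (216 to 287) in NASH members, a log2 ratio of 1.66 (1.07 to 2.36), and was found in 20 of 103 and 126 of 276 cells. At 1000 UMIs per cell a Notch4 UMI was present in 8.70% (3.83 to 16.4) and 23.4% (18.4 to 29.0) of the members, against 19.4% and 45.7% before thinning, and in B cells in 0.545% and 0 of 80 cells. The ligand Dll4 held 25.9 CPM (11.2 to 51.1) and 75.5 CPM (57.5 to 97.4), with a log2 ratio of 1.47 that was 0.75 with at least 2 rule UMIs, and Nrarp, a feedback target of Notch, 58.3 CPM (34.6 to 92.2) and 149.7 CPM (124 to 179). Hes1, a target, had a log2 ratio of 0.98 (0.45 to 1.59) and stayed short of 2-fold. Lfng and Notch1 had log2 ratios of 0.36 and 0.19. Nrarp was also higher in the sinusoidal-type cells, with a log2 ratio of 1.43, while Notch4 and Dll4 there held 0.44 and 0.37. Wider intervals than for Ctgf come with the lower counts.

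**Figure D4:**
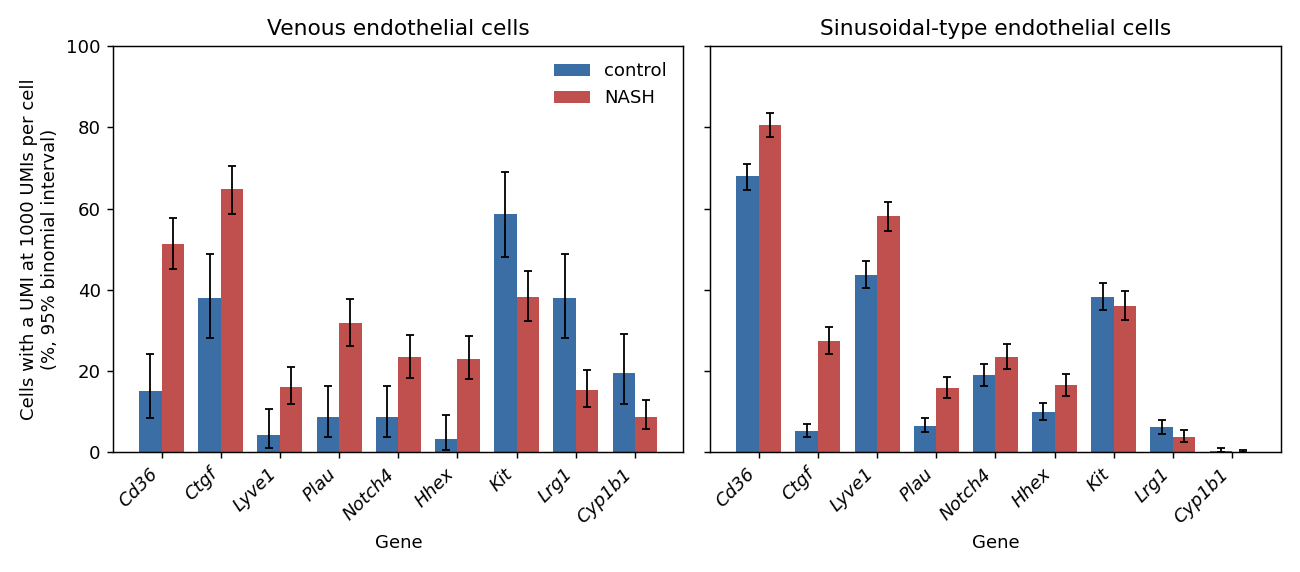
Cells with a UMI of 9 genes (y axis, percent, after thinning every cell to 1000 UMIs) in venous (left) and sinusoidal-type endothelial cells (right) of the control and NASH library, with 95% binomial intervals. Among the members the NASH bar is the higher for Cd36, Ctgf, Lyve1, Plau, Notch4 and Hhex, and the lower for Kit, Lrg1 and Cyp1b1.

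Genes of the endothelin and other vasomotor systems differed in both directions. Of 9 measured 1 was at least 2-fold higher and 1 lower in NASH members, against 2.84% and 1.43% of all genes. Their median log2 ratio was -0.21. Ednrb, the endothelin B receptor (chr14:103814625-103844402), held 589.9 CPM (507 to 682) in control and 234 CPM (202 to 271) in NASH members, a log2 ratio of -1.33 (-1.64 to -1.03), found in 32 of 103 and 65 of 276 cells. Of its 182 control UMIs 36 lay in 1 cell, and without members carrying a UMI of the 4 immune genes the log2 ratio of Ednrb was -0.66. In the sinusoidal-type cells Ednrb was higher in NASH, with 43.6 and 88.0 CPM. Adm, adrenomedullin, held 38.9 and 93.4 CPM in the members, a log2 ratio of 1.22 (0.37 to 2.28) that was 0.92 with at least 2 rule UMIs, and Calcrl, its receptor, 1964 and 1257 CPM, a log2 ratio of -0.64 (-0.79 to -0.50). Ece1, which cleaves the endothelin precursor, and Nos3, the endothelial nitric oxide synthase, had log2 ratios of -0.21 and 0.37. Ptgs1, cyclooxygenase 1, held 1692 and 1134 CPM, a log2 ratio of -0.58 (-0.73 to -0.42).

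None of 16 measured genes of the BMP and activin pathway passed 2-fold in either direction, against 4.27% of all genes. Their median log2 ratio was 0.16. The ligand Bmp2 held 939.99 and 866 CPM, lower than the 2557 and 2108 CPM of the sinusoidal-type cells, and Bmp6 107 and 179 CPM, a log2 ratio of 0.73 (0.19 to 1.34). Eng, the co-receptor endoglin, had a log2 ratio of 0.25 (0.12 to 0.39). Of the targets, Id3 held 3711 and 2782 CPM, a log2 ratio of -0.42 (-0.52 to -0.31), while Id1 had 0.23 and Id4 0.77. The targets therefore did not share 1 direction.

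Of 25 measured transcription factors of endothelium, which include the rule gene Lhx6, 1 passed 2-fold, against 4.27% of all genes. Their median log2 ratio was -0.14. That gene was Hhex, a homeobox factor of endothelium and B cells, with 87.5 CPM (57.7 to 127) in control and 261 CPM (226 to 299) in NASH members, a log2 ratio of 1.55 (0.99 to 2.21). At 1000 UMIs per cell Hhex was present in 3.26% and 22.99% of members, against 20.4% and 42.8% before thinning. The share in B cells, which express Hhex, was 28.6% and 42.5%. Nr2f2 held 1692 and 1872 CPM, a log2 ratio of 0.15 (0.00 to 0.29). Klf2, a flow-responsive factor, held 353 and 604 CPM, a log2 ratio of 0.77 (0.47 to 1.09), and Klf10 51.9 and 125 CPM, a log2 ratio of 1.24 (0.50 to 2.14). Of 15 flow-responsive genes 2 were at least 2-fold higher (Ctgf and Klf10) and 1 lower (Nqo1), against 2.84% and 1.43% of all genes.

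Lower in the NASH members were Cyp1b1, a cytochrome P450 that metabolizes retinoids and steroids, with 366 CPM (302 to 440.4) and 115 CPM (92.6 to 142), a log2 ratio of -1.67 (-2.08 to -1.26). At 1000 UMIs per cell Cyp1b1 was present in 19.6% (12.03 to 29.1) and 8.81% (5.67 to 12.9) of members, against 29.1% and 13.8% before thinning, in 0.272% of control B cells and in 0.354% of control sinusoidal-type cells, and in 0 of 765 NASH ones, which allows a share of up to 0.392%. Col13a1, a transmembrane collagen, held 311 and 98.6 CPM, a log2 ratio of -1.66 (-2.11 to -1.21), and Gatm, an enzyme of creatine synthesis, 327 and 108 CPM, a log2 ratio of -1.61 (-2.04 to -1.17). Gja4, connexin 37, held 395 and 169 CPM, a log2 ratio of -1.23 (-1.59 to -0.86), and was found in 45 of 103 and 75 of 276 cells. Mpp6, a scaffold protein, held 104 and 23.04 CPM, with 32 and 18 UMIs. Nqo1, an antioxidant reductase, held 246 and 93.4 CPM, a log2 ratio of -1.40 with and -0.98 without the highest cells, and -0.69 without members carrying an immune-gene UMI.

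Some higher genes rested on few control UMIs. Epha2, an ephrin receptor, held 3 UMIs in control and 55 in NASH members, a log2 ratio of 2.65 (1.23 to 5.18), and was found in 3 and 48 cells. Frzb, a secreted Wnt antagonist, held 5 and 58 UMIs in 4 and 44 cells, a log2 ratio of 2.07 (0.89 to 3.87), and 4 and 0 UMIs in the sinusoidal-type cells. 8430408G22Rik, known as Depp1 and a target of FoxO factors, held 1 UMI in control and 102 in NASH members, a log2 ratio of 4.75 (2.82 to 10.6), and was higher in the sinusoidal-type cells too, with 5.95 and 96.3 CPM. None of them rested on a single NASH cell, the highest cell holding 3, 4 and 8 UMIs.

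The elastic fibre genes showed how single cells can decide a sum. Of 6 measured 1 was at least 2-fold higher and 2 lower, against 2.84% and 1.43% of all genes, with a median log2 ratio of -0.41. Eln, elastin, held 558 CPM (477 to 647) in control and 127 CPM (103 to 154) in NASH members, a log2 ratio of -2.13. Of its 172 control UMIs 117 lay in 1 cell, the member with most rule UMIs in the control (154, of them 103 of Fbln2), and without the highest cells the log2 ratio was -0.73. The same cell held 38 of 55 control UMIs of Ltbp1, a latent TGF-beta binding protein, and the log2 ratio of Ltbp1 was -3.38 with and -1.98 without the highest cell of each library. Fbln5, fibulin-5, was the higher gene, with 61.6 CPM (37.1 to 96.2) and 149.7 CPM (124 to 179) and no cell over 11 UMIs, and its log2 ratio of 1.25 was 0.83 by the mean of per-cell CPM. The basement membrane collagens Col4a1 and Col4a2 had log2 ratios of 0.35 (0.17 to 0.54) and 0.67 (0.40 to 0.95).

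Altogether 9 cells held more than 50% of the NASH or control UMIs of 24 of the genes past 2-fold. One control member held all 272 control UMIs of Igfbp5, together with 101 UMIs of mesothelial and 67 of stellate and fibroblast markers and 7 of the 5 endothelial genes. One NASH member held 1961 of 1980 NASH UMIs of Igha, 948 of 955 of Jchain, 217 of 218 of Ighv8-8 and all 387 of Igkv6-32, the genes of a plasma cell, beside 51 endothelial UMIs and none of Ptprc. Without the highest cells the log2 ratio of Igha was -3.43 in place of 3.18 and of Jchain -2.98 in place of 3.89. One control member held 55 of 58 UMIs of the chemokine Cxcl2, which had a log2 ratio of -2.02 with it and 1.32 without the highest cells. The hemoglobin genes Hba-a1 and Hbb-bs had 178 of 239 and 157 of 235 NASH UMIs in 1 cell. Of 4 measured platelet and erythroid genes 4 were at least 2-fold higher in the NASH members, against 2.84% of all genes. They stayed so without the highest cells. They were higher in the sinusoidal-type cells as well, with a median log2 ratio of 2.69 over the same genes.

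T and NK cell markers summed to 32.4 CPM in control and 35.8 CPM in NASH members, cholangiocyte markers to 38.9 and 75.5 CPM, and hepatocyte markers to 256 and 421 CPM. Kupffer cell and macrophage markers summed to 1507 and 1741 CPM. Of 9 measured 3 were at least 2-fold higher in NASH members and none lower, against 2.84% and 1.43% of all genes. The 3 were Cd68, Mpeg1 and Clec4f. The rule itself caps Clec4f and Cd5l in each member, so that their levels are no measure of Kupffer cell RNA. Stellate and fibroblast markers summed to 1167 and 755 CPM. Most of this was Ecm1, with 509 and 387 CPM, and Dcn, with 467 and 216 CPM. Of the Dcn UMIs 86 of 144 in the control and 150 of 169 in the NASH members lay in 1 cell. At 0 were Des, Dpt, Lum, Mfap4, Ngfr, Pdgfrb and Pth1r in the control and Dpt and Mfap4 in the NASH members. Smooth muscle and pericyte markers summed to 110.2 and 215 CPM. The part of these cells in the results was not tested.

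Inflammatory and stress genes gave a mixed picture. Of 13 measured chemokine and cytokine genes 2 were at least 2-fold higher and 3 lower, against 2.84% and 1.43% of all genes. Cxcl9, induced by interferon gamma, held 61.6 CPM (37.1 to 96.2) and 243 CPM (210 to 280), a log2 ratio of 1.95 (1.30 to 2.75). Of its 190 NASH UMIs 37 lay in 1 cell, and at 10 or more rule UMIs the log2 ratio of Cxcl9 was 0.59. Cxcl10, the other higher gene, had a log2 ratio of 1.35, and 0.89 without the highest cells. Among the 3 lower genes, Cxcl2 and Il1b had 55 of 58 and 33 of 47 control UMIs in 1 cell with 9 Ptprc UMIs. Without the highest cells their log2 ratios were 1.32 and -1.18. Of 26 interferon-stimulated genes 2 were higher and none lower, against 2.84% and 1.43% of all genes, and the median log2 ratio was -0.02. They were Ifi44, with a log2 ratio of 1.17 (0.47 to 2.01), and Isg15, with 1.03 (0.31 to 1.91). At 10 or more rule UMIs the log2 ratios of Ifi44 and Isg15 were 0.69 and 0.49, and Isg15 passed 2-fold in 6 of 11 alternatives. Of 22 immediate early and dissociation genes 4 were higher and none lower, against 2.84% and 1.43% of all genes, with a median log2 ratio of 0.31. Among them Hspa1b, an inducible heat shock protein, held 84.3 and 225 CPM, a log2 ratio of 1.40 (0.82 to 2.07), beside 1.37 in the sinusoidal-type cells, and was found in 16 and 85 cells. None of 15 measured genes of antigen presentation passed 2-fold, and of 21 antioxidant and metallothionein genes Nqo1 alone did, being lower. Of all genes 4.27% passed 2-fold.

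**Figure D5:**
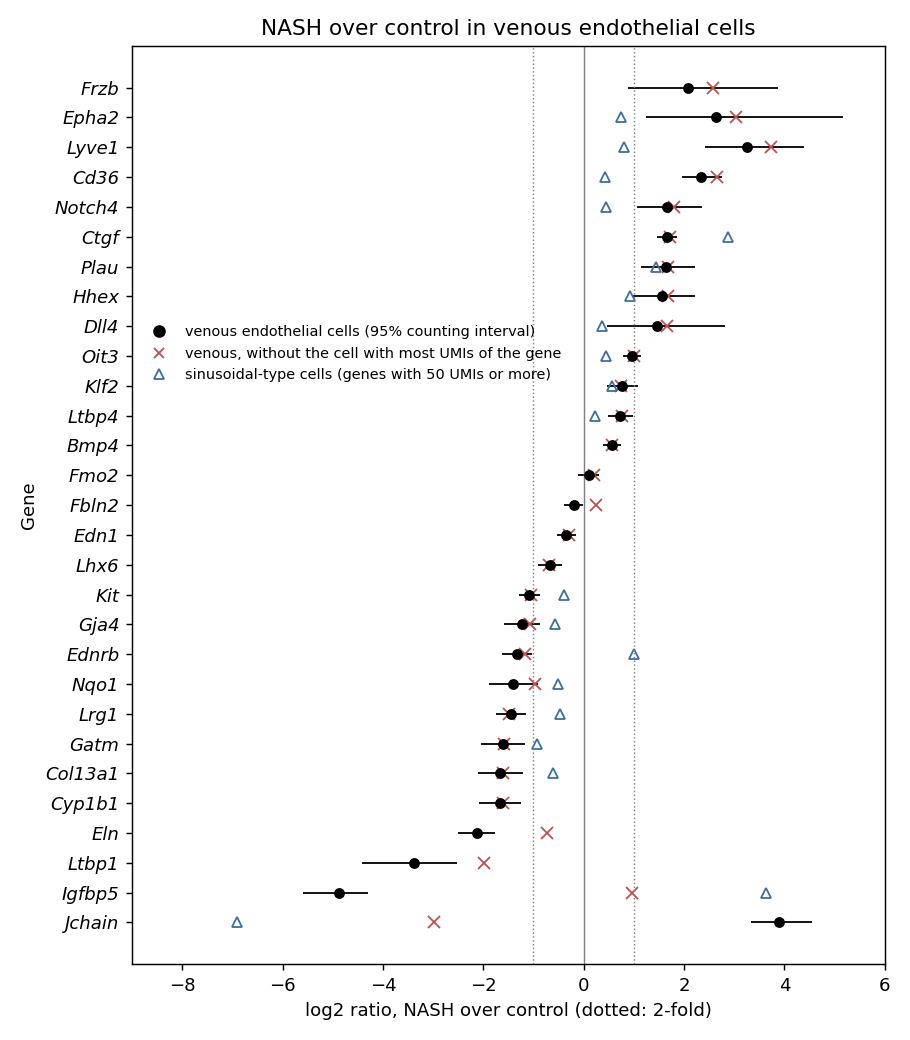
log2 ratio of NASH over control (x axis) for 29 genes (y axis) in venous endothelial cells (circles, 95% counting interval), without the cell with most UMIs of the gene in each library (crosses) and, where a gene held at least 50 UMIs, in sinusoidal-type cells (triangles). Fbln2, Igfbp5 and Jchain cross 0 when the highest cell of each library is left out, while Kit, Cd36, Ctgf, Notch4, Plau, Hhex, Lrg1 and Cyp1b1 stay past 2-fold.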

How the data were processed

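The deposited tables hold UMI counts per cell and gene, which the authors made from BD Rhapsody libraries with the vendor's whole transcriptome pipeline (GRCm38), without normalization. One label names 10x Genomics instead. The 16383 gene columns include 12 named by dates. The NASH table has no header and was named in the control's order, where the correlation of levels across genes between tables was 0.973, against 0.471 and 0.473 one column to either side. Cells with at least 500 UMIs and 200 genes were kept. UMIs were summed over members, expressed as CPM with exact Poisson intervals, and compared as log2 ratios with 0.5 UMI added and exact binomial intervals. Shares have exact binomial (Clopper-Pearson) intervals. Genes needed 50 UMIs over both libraries. Differences of at least 2-fold were counted without a test, since each diet has 1 library. The members and the 36 gene lists were chosen with earlier results of these data known. Named were rule genes, markers, the genes of highest and lowest ratio overall and the largest ratios of each list. Other list members were named after their values were seen. Alternatives were other rule limits, filters, scalings, an equal depth and leaving out single cells. Only the log2 ratio and its interval were tested on simulated data, with counts drawn independently. Such counts lack the piling of UMIs in single cells seen here. Python 3.11.15, numpy 2.4.6, scipy 1.17.1, pandas 2.3.3 and matplotlib 3.10.9 were used.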

Additional observations from a re-analysis of the deposited data

Results flagged for a closer look

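Ednrb differed between the diets in opposite directions in venous and sinusoidal-type cells, with a log2 ratio of NASH over control of -1.33 in the former and 1.01 in the latter. Of the 182 control UMIs of Ednrb 36 lay in 1 venous cell, and without members carrying a UMI of Ptprc, Cd79a, Cd3e or Adgre1 its ratio was -0.66, short of 2-fold. Igfbp5 did so with -4.88 and 3.63, but all its control UMIs in the venous cells lay in 1 cell. Igha had 3.18 and -7.03, Jchain 3.89 and -6.90, and Ighv8-8 7.43 and -5.02, and nearly all NASH UMIs of these 3 genes lay in 1 venous cell. Ighv8-8 had no UMI in the control venous cells, so that its fitted ratio depends on the 0.5 UMI added, and against a floor of 3 counts over the library it was at least 28.7-fold higher. With 1 library per diet the difference between the cell classes was not tested for any of the 5 genes.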

How the results depend on the processing

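No paired analysis was possible because each diet has 1 library. For the same reason no replicate could be left out. The share of venous cells was higher in NASH under every alternative, by 2.12-fold to 3.38-fold. Each alternative changed 1 setting, and the other rule limits were set against all kept cells only, not against endothelial cells. All of these alternatives used the same 5 rule genes. In the control it was 1.69% with at least 6 rule UMIs, 1.24% with 10, 1.78% without Clec4f or Cd5l UMIs, 1.88% at 1000 UMIs per cell and 5.52% of endothelial cells. In NASH it was 9.35%, 6.36%, 4.93% and 3.18% with at least 2, 4, 6 and 10 rule UMIs, 8.81% in cells with 1000 UMIs or more, 4.34% without Clec4f or Cd5l UMIs, 5.88% without UMIs of the 4 immune genes, 5.97% at 1000 UMIs per cell and 11.7% of endothelial cells. Genes higher and lower in NASH numbered 268 and 188 with a minimum of 20 UMIs, 49 and 20 with 100, and 346 and 288 at 1.5-fold. Of the listed genes 31 passed 2-fold with 100 UMIs and 94 passed 1.5-fold. With at least 10 rule UMIs 65 genes were higher, without immune-gene UMIs 32 were lower, and with 100 UMIs 157 were above the sinusoidal-type cells. Log2 ratios turned for Dcn (0.27) with at least 2 rule UMIs, for Cp (-0.40), Cxcl10 (-0.52) and Igfbp5 (4.18) with 6, and for Igha (-3.57), Ighv8-8 (-1.06), Igkv6-32 (-1.06) and Jchain (-2.50) with 10. Without immune-gene UMIs they turned for Cxcl2 (0.58), Igfbp5 (0.32), Igha (-3.52), Ighv8-8 (-1.26), Igkv6-32 (-1.26), Jchain (-2.77) and Lpl (-0.92), and without the highest cells for Cxcl2 (1.32), Igfbp5 (0.97), Igha (-3.43), Igkv6-32 (-1.32) and Jchain (-2.98). The cause was not tested. The limit of 10 rule UMIs, leaving out highest cells and leaving out members with Lyve1 were chosen after seeing the data. Of 63 named genes past 2-fold, 46 stayed so without the highest cells and 40 without immune-gene UMIs.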
